A study of Homo sapiens with 2 samples.

Results

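The 10 genes described here, FOS, FOSB, FOSL1, JUN, JUNB, EGR1, ATF3, IER2, IER3 and DUSP1, are immediate early genes, most of them coding for AP-1 or EGR transcription factors. They were chosen by name, with earlier results of these data known. All 10, mapped to the Ensembl identifiers of the deposited table, were found among its 30796 genes. The study measured RNA with Drop-seq in single cells of MDAMB468 and CAL51, 2 human cell lines labelled as breast tissue and triple negative cancer, that is, lacking the oestrogen, progesterone and HER2 receptors. In this method a cell and a barcoded bead share an oil droplet, and each captured mRNA molecule is counted once by its unique molecular identifier (UMI). Neither line carries a named treatment, time or genetic change in the labels, and each is 1 library, so the lines cannot be compared by a test over samples. All intervals below are exact 95% intervals that cover counting error only.

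Immediate early genes are transcribed within minutes of a growth factor, a stress or mechanical handling, without new protein synthesis, and their mRNAs are short-lived. FOS and JUN family proteins pair through leucine zippers into AP-1, which binds target promoters and enhancers, while EGR1 binds GC-rich sites through zinc fingers. Ternary complex factors with SRF, CREB and ATF proteins, and AP-1 itself, drive these genes, and phosphatases such as DUSP1 switch off the kinases that started the response. In breast epithelium these genes respond to EGFR and ERK signalling, and also to cell dissociation.

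MDAMB468 was represented by 306 barcodes with 5501900 UMIs and a median of 10016.5 UMIs per barcode. CAL51 was represented by 1346 barcodes with 16223444 UMIs and a median of 8635. Another 31 CAL51 barcodes had the same 12-base sequence as an MDAMB468 barcode and were left out of CAL51. Among the barcodes counted above, 64 of MDAMB468 and 7 of CAL51 differed by 1 base from another barcode of their line that held 5 times their UMIs or more. These satellite barcodes were kept, and values without them are given below for IER3, DUSP1 and FOSL1. The epithelial markers EPCAM, KRT8 and KRT18 were present in both lines. EPCAM stood at 867 and 283 CPM (UMIs of the gene scaled to a common total over all genes) in MDAMB468 and CAL51. KRT8 stood at 764 and 919 CPM, and KRT18 at 555 and 1555 CPM, both higher in CAL51. KRT19 was much lower in CAL51, at 1934 and 30.6 CPM. The basal keratin KRT5 had 2224 UMIs in MDAMB468 and 0 in CAL51, and CDH1 had 182 and 7 UMIs. ESR1 and PGR had at most 3 UMIs in a line, and ERBB2 stood at 7.09 and 16.2 CPM. The leukocyte and endothelial markers found in the table had at most 6 UMIs in a line. Of the fibroblast-associated genes, COL1A2 had 0 UMIs in MDAMB468 and 863 in CAL51, COL1A1 22 and 11, PDGFRA 2 and 15, and DCN 1 in each.

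The promoters of these genes carry known regulatory sequences, and 8 of the 10 genes had a RefSeq entry on GRCh38.p14. The 250 bases before each RefSeq start were searched on both strands for a cAMP response element (TGACGTCA), its core (TGACG, which also lies inside the full element), the JUN promoter site (TGACATCA), the AP-1 consensus (TGACTCA), the CArG box bound by SRF, an EGR site (GCGNGGGCG) and a TATA box (TATAAA). Of 35116 RefSeq windows of this length, 1.65% held the full response element, 21.2% its core, 2.37% the JUN site, 4.203% the AP-1 consensus, 1.16% a CArG box, 8.41% the EGR site and 10.7% the TATA box. The stretches below are shown because FOS and EGR1 had like levels in both lines, while FOSB, JUNB, ATF3 and DUSP1 were at least 2-fold higher in MDAMB468. JUN and IER2 were higher too, but their windows lie within annotated exons or genes and are not printed. Each is printed 5′ to 3′ on the strand of its gene, with matches in capitals, and holds no base of its GENCODE 29 gene.
FOS (chr14:75278578-75278773, + strand): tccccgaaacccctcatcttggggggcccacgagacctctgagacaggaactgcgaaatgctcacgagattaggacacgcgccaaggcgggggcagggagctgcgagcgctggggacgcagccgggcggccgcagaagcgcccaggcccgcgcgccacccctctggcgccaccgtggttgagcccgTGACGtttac
FOSB (chr19:45467746-45467994, + strand): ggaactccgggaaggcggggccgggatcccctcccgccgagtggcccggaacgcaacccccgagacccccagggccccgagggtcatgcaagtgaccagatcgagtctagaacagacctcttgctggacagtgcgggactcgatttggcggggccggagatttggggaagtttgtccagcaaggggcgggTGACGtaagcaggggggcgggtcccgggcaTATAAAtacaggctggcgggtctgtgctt
JUNB (chr19:12791236-12791485, + strand): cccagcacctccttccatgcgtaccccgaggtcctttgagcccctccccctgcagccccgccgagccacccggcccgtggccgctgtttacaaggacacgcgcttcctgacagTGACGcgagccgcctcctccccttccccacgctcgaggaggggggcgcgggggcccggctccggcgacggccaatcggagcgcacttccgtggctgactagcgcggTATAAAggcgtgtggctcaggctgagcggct
EGR1 (chr5:138465229-138465478, + strand): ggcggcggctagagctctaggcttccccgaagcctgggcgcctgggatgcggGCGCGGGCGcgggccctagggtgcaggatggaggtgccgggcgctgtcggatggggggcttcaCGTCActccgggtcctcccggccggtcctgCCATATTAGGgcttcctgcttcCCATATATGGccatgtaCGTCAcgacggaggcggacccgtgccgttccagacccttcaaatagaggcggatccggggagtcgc
ATF3 (chr1:212565157-212565333, + strand): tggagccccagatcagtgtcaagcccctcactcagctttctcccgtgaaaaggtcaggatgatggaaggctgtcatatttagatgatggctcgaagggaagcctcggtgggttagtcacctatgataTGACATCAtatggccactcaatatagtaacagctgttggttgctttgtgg
DUSP1 (chr5:172771196-172771445, - strand): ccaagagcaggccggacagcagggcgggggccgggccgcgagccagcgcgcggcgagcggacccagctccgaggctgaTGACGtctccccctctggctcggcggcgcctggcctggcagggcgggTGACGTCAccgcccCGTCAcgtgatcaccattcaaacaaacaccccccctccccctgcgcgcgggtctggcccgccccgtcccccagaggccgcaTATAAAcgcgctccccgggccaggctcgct

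EGR1 was the gene with 2 CArG boxes, at 105 to 96 and 83 to 74 bases before its start, and its EGR site lay 198 to 190 bases before it. FOS had the TGACG core at 64 to 60 bases, and FOSB had it at 60 to 56 bases before the start. DUSP1 held the full response element at 125 to 118 bases, and JUN held TGACATCA at 67 to 60 bases. In the ATF3 window shown above, the same letters lay at 123 to 116 bases before the start. ATF3 had another RefSeq window, beginning at chr1:212614768 within its GENCODE gene, which is not printed. That window held TATAAA at 230 to 225 bases and no TGACATCA. FOS, FOSB, JUNB and DUSP1 had TATAAA between 33 and 25 bases before the start. IER2 had the core at 140 to 136 bases, and the AP-1 consensus was found in none of the windows. A match is a description of letters and says nothing of binding in these cells.

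Levels were summed over the barcodes of a line and are given in CPM. Because each library tags the 3′ end of a transcript once, a UMI stands for a captured molecule whatever the transcript's length. Levels of different genes are set side by side below, but differences between genes in capture or mapping were not checked. Together the 10 genes took 2817 CPM (2773–2862) in MDAMB468 and 841 CPM (827–855) in CAL51. Of the 10, 8 were at least 2-fold higher in MDAMB468 and 0 were at least 2-fold higher in CAL51. Among 15347 genes with at least 20 UMIs in all, 15.8% were at least 2-fold higher in MDAMB468 and 18.6% in CAL51. The median log2 difference, of CPM + 1 in MDAMB468 minus CAL51, was 1.60 over the 10 genes and -0.13 over all genes. FOS and EGR1, both common readouts of acute stimulation, were the genes within 2-fold. Counts of genes at least 2-fold higher, here and below, were made on this log2 difference of CPM + 1. Genes just over 2-fold in CPM can therefore be left out. Among the lists below, examples were KLF10, 2.03-fold higher in MDAMB468 (0.96), and SPRED2, 2.09-fold higher in CAL51 (-0.97).

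**Figure D1:**
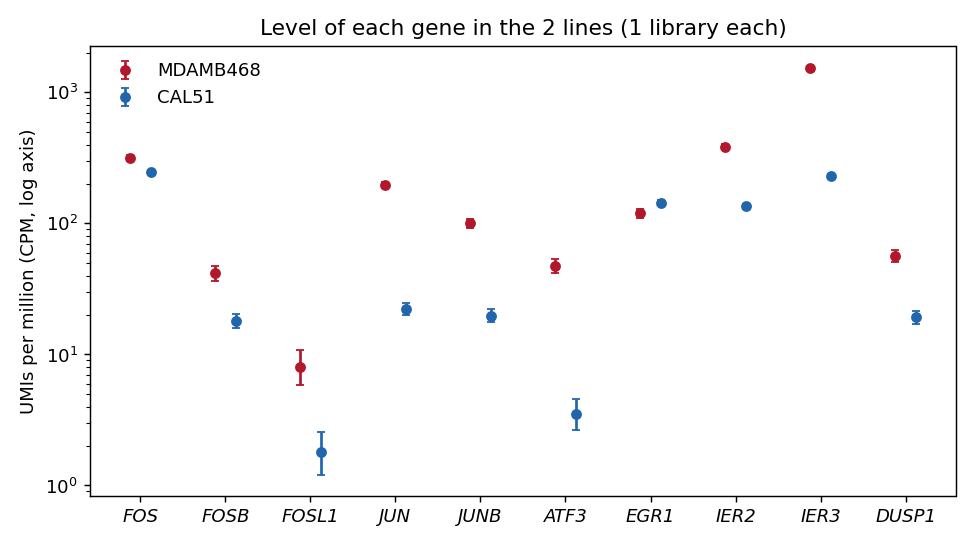
Level of each of the 10 genes in the library of each line, in CPM on a log axis, with exact 95% Poisson intervals as bars. JUN, ATF3 and IER3 stand far apart between the lines, while FOS and EGR1 lie close together.

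FOS, the prototype FOS family subunit, lies at chr14:75278774-75282230 (GENCODE 29, GRCh38, as all positions here). It had 1733 UMIs in MDAMB468 and 4024 in CAL51, or 315 CPM (300.3–330.2) and 248 CPM (240.4–256). The level was 1.27-fold higher in MDAMB468 (1.20–1.34), a log2 difference of 0.34 that stayed under the 2-fold mark. FOSB, a close relative at chr19:45467995-45475179, had 230 and 293 UMIs, or 41.8 CPM (36.6–47.6) and 18.1 CPM (16.1–20.3). It was 2.31-fold higher in MDAMB468 (1.94–2.76), and this gene fell under 2-fold when barcodes were weighted equally, at a log2 difference of 0.90. FOSL1, which codes for the FRA-1 subunit and lies at chr11:65892049-65900573, was the rarest of the 3 FOS family genes of the group, with 44 and 29 UMIs. Its 7.997 CPM (5.81–10.7) in MDAMB468 was 4.47-fold (2.74–7.41) the 1.79 CPM (1.20–2.57) of CAL51. These 3 genes were thus higher in MDAMB468 by unequal amounts, least for FOS, the most abundant of them.

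JUN, the partner that binds DNA with FOS or as a JUN dimer, lies at chr1:58780788-58784327. It had 1083 UMIs in MDAMB468 and 360 in CAL51, or 197 CPM (185–209) and 22.2 CPM (19.96–24.6). JUN was 8.87-fold higher in MDAMB468 (7.87–10.02), with intervals far apart. JUNB, a JUN relative that is a weaker activator on many AP-1 sites, lies at chr19:12791496-12793315 and had 550 and 321 UMIs. Its 100 CPM (91.8–109) in MDAMB468 was 5.05-fold (4.39–5.82) the 19.8 CPM (17.7–22.1) of CAL51. In CAL51 the 4024 FOS UMIs far outnumbered those of JUN and JUNB together, while in MDAMB468 the 1733 FOS UMIs stood close to their sum.

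EGR1, the zinc finger factor, lies at chr5:138465490-138469315 and was the one gene of the 10 with the lower level in MDAMB468. It had 657 UMIs in MDAMB468 and 2343 in CAL51, or 119 CPM (110.5–129) and 144 CPM (139–150.4). CAL51 was 1.21-fold higher (1.11–1.32), a log2 difference of -0.27 for MDAMB468 minus CAL51. ATF3, a stress-induced bZIP factor that pairs with JUN proteins, lies at chr1:212565334-212620777 and showed the widest gap of the 10. It had 261 and 57 UMIs, or 47.4 CPM (41.9–53.6) and 3.51 CPM (2.66–4.55), a 13.5-fold higher level in MDAMB468 (10.1–18.3).

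IER3, which acts on survival and ERK signalling and lies at chr6:30743199-30744554, was the most abundant of the 10 in MDAMB468. It had 8517 UMIs there and 3717 in CAL51, or 1548 CPM (1515–1581) and 229 CPM (222–237), a 6.76-fold gap (6.50–7.02). IER2, a nuclear immediate early protein at chr19:13150415-13154908, had 2114 and 2186 UMIs, or 384 CPM (368–401) and 135 CPM (129–141). It was 2.85-fold higher in MDAMB468 (2.68–3.03). DUSP1, the phosphatase that inactivates p38, JNK and ERK, lies at chr5:172768090-172771195 and had 311 and 313 UMIs. Its 56.5 CPM (50.4–63.2) in MDAMB468 was 2.93-fold (2.50–3.44) the 19.3 CPM (17.2–21.6) of CAL51.

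FOSB, JUNB, IER2, IER3 and DUSP1 each overlap an annotated gene on the opposite strand (ERCC1, HOOK2 and antisense genes). Use of the strand in counting was not given in the sources used here, so the values of these 5 genes are uncertain to that extent. The order of levels in MDAMB468 was IER3, IER2, FOS, JUN, EGR1, JUNB, DUSP1, ATF3, FOSB and FOSL1. Intervals of neighbours overlapped there for DUSP1 with ATF3 and for ATF3 with FOSB. In CAL51 the order was FOS, IER3, EGR1, IER2, JUN, JUNB, DUSP1, FOSB, ATF3 and FOSL1. The overlapping neighbours in CAL51 were EGR1 with IER2, and JUN, JUNB, DUSP1 and FOSB in sequence. FOS and EGR1 thus stood at places 1 and 3 of this order in CAL51, and at places 3 and 5 in MDAMB468.

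The 2 lines were next compared cell by cell. Each barcode was thinned at random to 2500 UMIs, a total that all kept barcodes reached, so that detection did not follow depth. IER3 was detected in 92.8% of MDAMB468 barcodes (89.3–95.4) and 33.1% of CAL51 barcodes (30.6–35.7). JUN was detected in 37.6% (32.1–43.3) and 4.83% (3.75–6.11), and ATF3 in 11.4% (8.10–15.5) and 0.817% (0.409–1.46). EGR1 was found in nearly the same share of both lines, 28.4% (23.4–33.8) and 29.2% (26.8–31.7).

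FOS was detected in 51.6% of MDAMB468 barcodes (45.9–57.4) and 41.3% of CAL51 barcodes (38.7–44.0), and IER2 in 58.2% (52.4–63.8) and 28.4% (26.0–30.9). JUNB was detected in 21.6% (17.1–26.6) and 5.42% (4.27–6.77), FOSB in 10.1% (6.99–14.1) and 4.75% (3.68–6.03), and FOSL1 in 3.27% (1.58–5.93) and 0.520% (0.209–1.07). DUSP1 was detected in 8.50% (5.63–12.2) and 4.75% (3.68–6.03), and these intervals overlap. Without the satellite barcodes, with the random UMIs redrawn, DUSP1 in MDAMB468 was at 13.2% (9.22–18.2), clear of 5.00% (3.90–6.31) in CAL51. FOSL1 in MDAMB468 was then at 1.24% (0.256–3.58), which overlaps the 0.523% (0.210–1.07) of CAL51, and another draw with all barcodes gave 2.29% (0.925–4.66) and also an overlap. Without thinning, the FOS shares were 81.4% and 68.9%, the EGR1 shares 56.5% and 58.1%, and the IER3 shares 98.4% and 61.1%. Free RNA in droplets can give a UMI to a cell that does not express a gene. Neither line holds a cell type that lacks these genes, so this background could not be measured, and the shares are of barcodes with a UMI.

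**Figure D2:**
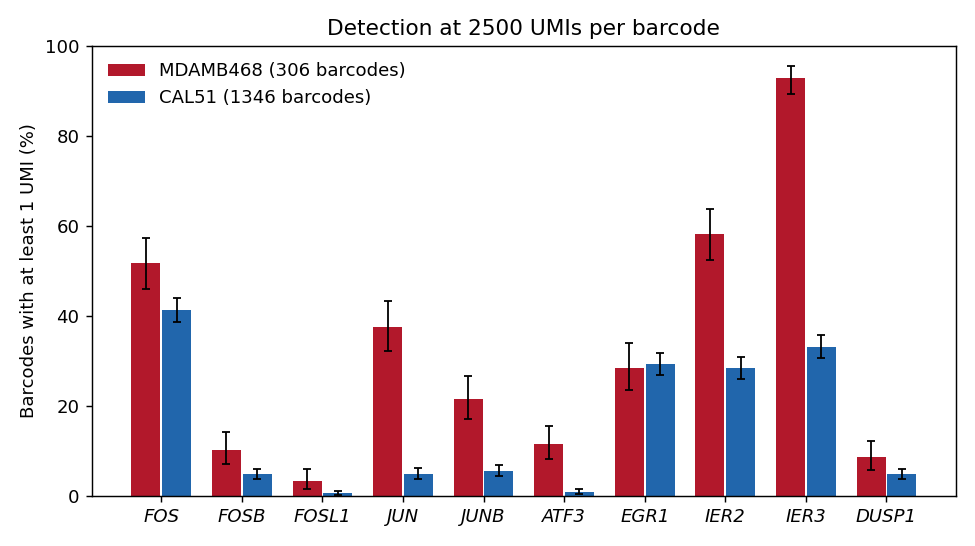
Percent of barcodes with at least 1 UMI of each gene after thinning every barcode to 2500 UMIs, with exact 95% binomial intervals as bars. IER3 reached 92.8% of MDAMB468 barcodes and 33.1% of CAL51 barcodes, while the EGR1 bars stand at almost the same height.

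At this depth the median MDAMB468 barcode had 3 of the 10 genes detected, and the median CAL51 barcode had 1. At least 3 were detected together in 69.0% of MDAMB468 barcodes (63.4–74.1) and in 19.7% of CAL51 barcodes (17.6–21.9). None was detected in 0.980% of MDAMB468 barcodes (0.203–2.84) and in 18.4% of CAL51 barcodes (16.4–20.6). The most detected in any barcode was 8 in MDAMB468 and 6 in CAL51. Barcodes without any of these UMIs were thus common in CAL51 and rare in MDAMB468 at equal depth. IER3 alone was detected in 284 of 306 MDAMB468 barcodes, 92.8%, and in 33.1% of CAL51 barcodes. This 1 gene thus left few MDAMB468 barcodes that could have none of the 10.

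Spread between barcodes was described by the Fano factor, the variance over the mean, which is 1 for pure counting noise. At 2500 UMIs, 1 of the 10 genes in MDAMB468 had a Fano factor of at least 1.5, against 1.64% of the 8762 genes with a mean of at least 0.02 UMIs. This was IER3, at 1.82, rank 59 of those genes. In CAL51, 2 of the 10, FOS at 1.76 (rank 70 of 9125) and IER3 at 1.66 (rank 97), passed that mark, against 1.59% of genes. FOSL1 and ATF3, with means of 0.00520 and 0.00817 UMIs in CAL51, were under the 0.02 mean that this share requires. FOS in MDAMB468 stood at 1.39, rank 232. These ranks are over genes of all means above that floor, and a Fano factor can rise with the mean. IER3 had a mean of 3.72 UMIs in MDAMB468 and 0.543 in CAL51, so its 2 values are not on a like footing.

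EGR1 and IER2 had Fano factors of 1.31 and 1.28 in CAL51 and of 1.07 and 1.14 in MDAMB468. JUNB had 1.29 in MDAMB468 and 1.18 in CAL51, and JUN had 1.14 and 1.09. In the draw used here, the rarer FOSB, FOSL1, ATF3 and DUSP1 lay between 0.970 and 1.08 in both lines. This was near the all-gene medians of 1.01 in MDAMB468 and 1.05 in CAL51. Without the satellite barcodes the IER3 value in MDAMB468 was 1.37, under the mark. Another random draw gave 1.59 for FOS in CAL51 and 1.01 for JUNB in MDAMB468. In that draw FOSL1 had 1.23 in MDAMB468 and 1.44 in CAL51, and DUSP1 had 1.14 and 1.21. ATF3 had 1.12 and 1.26, and FOSB 1.08 and 0.978. The values of these rare genes thus depended on the draw. Most Fano factors were larger at greater depth, with JUNB in CAL51 an exception (1.18 at 2500 and 1.12 at 20000 UMIs). At 20000 UMIs, which 91 MDAMB468 and 183 CAL51 barcodes reached, FOS had 3.31 and 4.72, IER3 5.47 and 4.39, and EGR1 2.27 and 3.12.

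**Figure D3:**
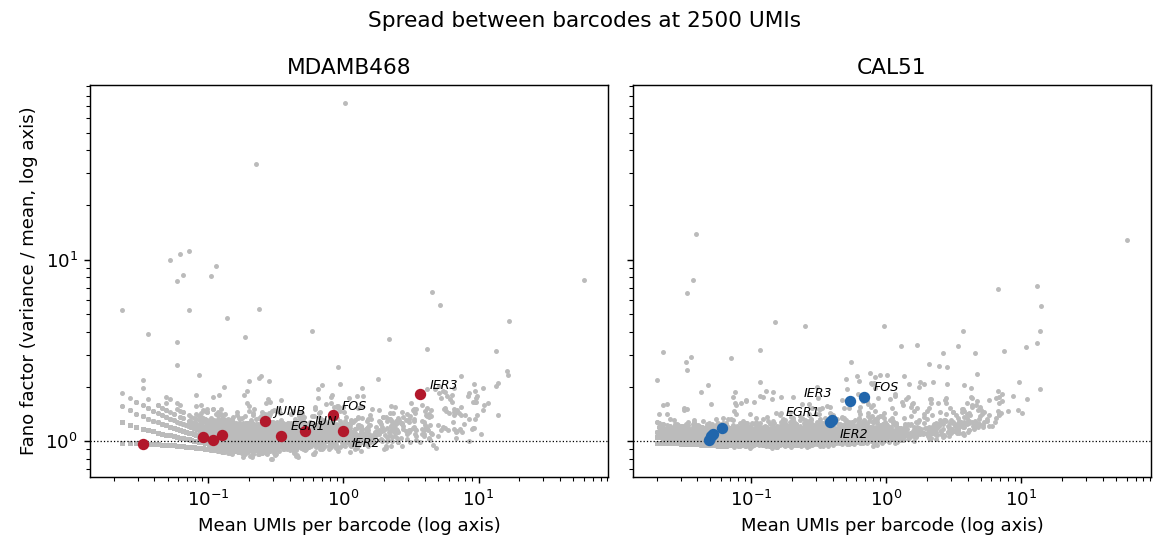
Fano factor against mean UMIs per barcode at 2500 UMIs, both on log axes, for every gene with a mean of at least 0.02 (grey) and for the members among them (coloured), with those above a mean of 0.2 named. The dotted line is a Fano factor of 1. IER3 and, in CAL51, FOS lie above most genes of their line.

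Correlation across barcodes was computed at 2500 UMIs, for pairs in which both genes had a mean of at least 0.02 UMIs, which left FOSL1 and ATF3 out in CAL51. The points share a library and are sparse counts, so a weak correlation is no finding. In MDAMB468, 6 of 45 pairs had a Pearson r of at least 0.1, against 5.86% of all gene pairs, with a median of 0.0321 and a highest value of 0.139 for FOSB with EGR1. In CAL51, 3 of 28 pairs reached 0.1, against 0.135% of all gene pairs, with a median of 0.0244. Those 3 were FOS with EGR1 at 0.226, FOS with DUSP1 at 0.124 and FOS with IER2 at 0.1003. FOS was thus in each of the 3. It also had the highest mean of the 10 in CAL51, at 0.686 UMIs against 0.0490 for DUSP1. Pairs with FOS and pairs of rarer genes are therefore not on a like footing. By Spearman correlation, FOS with EGR1 stood at 0.186, FOS with IER2 at 0.111 and FOS with FOSB at 0.111. FOS with DUSP1 was then at 0.0714, under the mark.

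The FOS and EGR1 value in CAL51 ranged from 0.126 to 0.315 over the depths, barcode sets and draws tried, with 0.132 in another draw at 2500 UMIs. In MDAMB468 the same pair had 0.103, and ranged from 0.0522 to 0.140. Counted as cells, EGR1 was detected in 211 of 556 CAL51 barcodes with FOS, 37.9% (33.9–42.1), and in 182 of 790 without FOS, 23.0% (20.1–26.1). In MDAMB468 it was detected in 51 of 158 barcodes with FOS, 32.3% (25.1–40.2), and in 36 of 148 without, 24.3% (17.7–32.1), and those intervals overlap. JUN with FOS had an r of 0.00263 in MDAMB468 and 0.0568 in CAL51. JUN was sparser than EGR1 in CAL51, with means of 0.0520 and 0.397 UMIs, so their r values are not on a like footing. JUN was detected in 6.12% of CAL51 barcodes with FOS (4.27–8.44) and 3.92% without (2.68–5.52), and those intervals overlap. In MDAMB468 it was detected in 37.3% with FOS and 37.8% without.

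**Figure D4:**
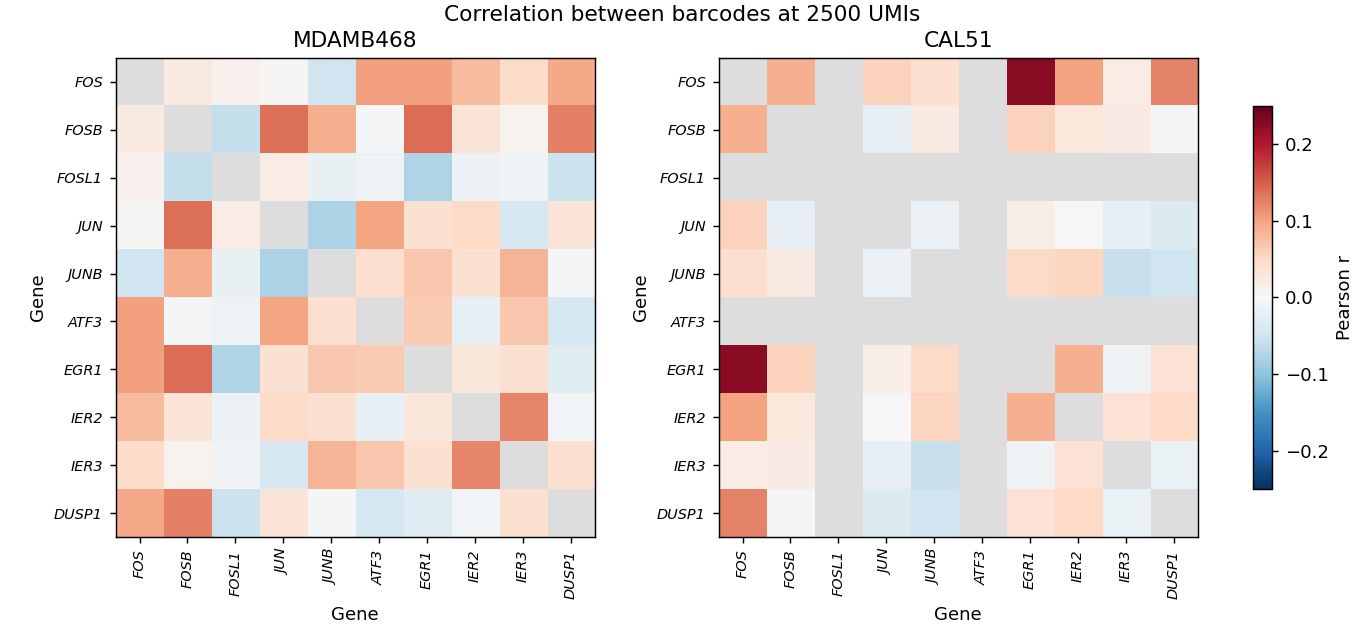
Pearson r across barcodes at 2500 UMIs for each pair of genes in MDAMB468 (306 barcodes) and CAL51 (1346 barcodes), as a colour from -0.25 to 0.25. Grey marks the diagonal and the pairs of FOSL1 and ATF3 in CAL51, which were not computed. The darkest cell is FOS with EGR1 in CAL51, at 0.226.

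The genes whose counts were most like the summed 10 genes in CAL51, of 4231 others, were CCN2 (r of 0.169), CCN1 (0.157), ID1 (0.138), the mitochondrial MT-CO1 (0.132) and PPP1R15A (0.130). CCN1, CCN2, ID1 and PPP1R15A are themselves rapid response genes. In MDAMB468 the highest of 3897 genes were LACTB2 (0.182), SKA3 (0.180), DDX50 (0.179), RMND5A (0.177) and NDUFA10 (0.175), none of which belongs to the immediate early lists. Over all gene pairs, an r of at least 0.1 was also far more common in MDAMB468, as given above. By counting noise alone, r scatters more widely over 306 barcodes than over 1346. Such shares and the highest r values therefore cannot be compared between the lines. The summed 10 genes had an r of 0.223 with the summed other immediate early genes in CAL51 and of 0.0558 in MDAMB468. The make-up of both sums differed between the lines. IER3 had a mean of 3.72 UMIs in MDAMB468 and 0.543 in CAL51, and ID3 stood at 179 and 1761 CPM. By gene, r with the other immediate early sum was 0.00298 for IER3 and -0.0199 for FOS in MDAMB468, and 0.0679 and 0.182 in CAL51. For the summed 10 genes, r values with log2 barcode depth were 0.0717 in MDAMB468 and -0.0712 in CAL51, and with the mitochondrial share -0.0239 and 0.112. With summed cell handling stress genes they were -0.111 and -0.0965, and with mitotic genes, a list added after seeing the data, 0.0280 and -0.124. The part of these measures in the results was not tested.

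Single barcodes weighed on ATF3 and JUNB. One MDAMB468 barcode of 68673 UMIs, picked because it held the most ATF3 UMIs, had 38 of the line's 261 ATF3 UMIs and 61 of its 550 JUNB UMIs, 11.1% of the latter. ATF3 stood at 553 CPM (392–760) there against 40.5 CPM in the other barcodes of the line, and JUNB at 888 CPM (679–1141) against 90.05 CPM. FOS was low in that barcode, with 2 UMIs, and FOSB and DUSP1 had 0. Without it and its 1 satellite, the line's ATF3 level was 11.5-fold that of CAL51 (8.58–15.7) and JUNB 4.55-fold (3.95–5.26), so both gaps stayed wide. In CAL51 a barcode of 34378 UMIs held 10 of the 57 ATF3 UMIs, or 17.5%.

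Other subunits of the same dimer families were mostly within 2-fold. Of 16 other AP-1 and ATF genes with at least 20 UMIs, 5 were at least 2-fold higher in MDAMB468 and 1 in CAL51, with a median log2 difference of 0.24. BATF had 66 UMIs in MDAMB468 and 0 in CAL51, at least 64.9-fold higher in MDAMB468 against a floor of 3 UMIs in the line. The lowest were ATF5, at 8.91 and 21.1 CPM (-1.16), and MAFG, at 19.1 and 36.7 CPM (-0.91). JUND and FOSL2, the remaining JUN and FOS family genes, lay near equality at 0.42 and 0.08. ATF4, the main factor of the integrated stress response, stood at 635 and 261 CPM (1.28).

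Among 35 other immediate early genes, 14 were at least 2-fold higher in MDAMB468 and 9 in CAL51, with a median of 0.06. EGR4 was also listed and not detected, having no UMI in the kept barcodes or no entry in the deposited table. The orphan nuclear receptors NR4A1 and NR4A2 were 8.51-fold (6.56–11.1) and 10.1-fold (7.31–14.3) higher in MDAMB468. The highest values were those of the kinase SGK1, with 78 and 9 UMIs (3.29), and MYC, with 1345 and 431 UMIs (3.15). ZFP36, which destabilises short-lived mRNAs, was 4.60-fold higher in MDAMB468 (3.79–5.59). On the other side, the BMP-responsive HLH inhibitor ID1 had 28 UMIs in MDAMB468 and 13922 in CAL51, 169-fold higher in CAL51 (117–254), and ID3 followed at -3.29. EGR2 and EGR3, the relatives of EGR1, were also lower in MDAMB468, with 4 and 3 UMIs against 89 and 59 in CAL51. The matricellular CCN1 was 4.25-fold higher in CAL51 (3.82–4.75), and CCN2 lay at -0.20.

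Feedback genes of ERK signalling included more genes higher in CAL51. Of 17 such genes, 3 were at least 2-fold higher in MDAMB468 and 8 in CAL51, with a median of -0.97. DUSP6, the ERK-selective phosphatase, had 18 UMIs in MDAMB468 and 4920 in CAL51, 92.7-fold higher in CAL51 (58.6–157). SPRY4, a Sprouty inhibitor of receptor signalling, had 5 and 338 UMIs (-3.52), and SPRY1 147 and 3502 (-2.97). The ETS factors ETV4 and ETV5 were at -1.49 and -2.53. Higher in MDAMB468 were DUSP10, which acts on JNK and p38, with 39 and 2 UMIs (2.85), and DUSP2, with 47 and 31 UMIs (1.71).

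Upstream, 1 of 22 kinases and factors was at least 2-fold higher in MDAMB468 and 2 in CAL51, with a median of -0.10. The one was EGFR, with 2524 and 196 UMIs, 37.97-fold higher in MDAMB468 (32.8–44.1), followed by MAPK9 (JNK2) at 0.68. NRAS was the lowest at -1.07. SRF, the CArG box factor, lay at -0.65, and the ternary complex factors ELK1, ELK3 and ELK4 lay at -0.20, -0.41 and 0.67.

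Most later genes linked to AP-1 were higher in MDAMB468: of 18, 12 were at least 2-fold higher in MDAMB468 and 4 in CAL51, with a median of 2.11. The listed MMP1, MMP3, MMP10, SERPINB2, IL1A and IVL were not detected, having no UMI in the kept barcodes or no entry in the deposited table. S100A9 had 1642 and 0 UMIs, at least 1614-fold higher in MDAMB468, and the urokinase gene PLAU had 342 and 23 (4.71). CD44 stood at 320.3 and 57.0 CPM (2.47). HMGA2, with 13 and 14058 UMIs (-8.01), and SPP1, with 0 and 929 UMIs and at least 105-fold higher in CAL51, were the lowest, and CCND1 lay at -2.09. Setting genes with 0 UMIs in a line to 3 UMIs left the list medians at 0.24 for the other AP-1 and ATF genes and 2.11 here.

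Stress and chaperone genes, which share handling as a trigger with FOS and EGR1, were 3 at least 2-fold higher in MDAMB468 and 3 in CAL51 of 20, with a median of -0.28. HSPA1A had 271 and 5 UMIs (5.26) and HSPA1B 125 and 12 (3.77), a nearly identical pair whose reads may be split uncertainly. UBB and HSPA5 were lowest at -1.43 and -1.38. The time from culture to lysis and the growth state of the cells were not given in the sources used here, and their part cannot be told apart from that of the line.

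**Figure D5:**
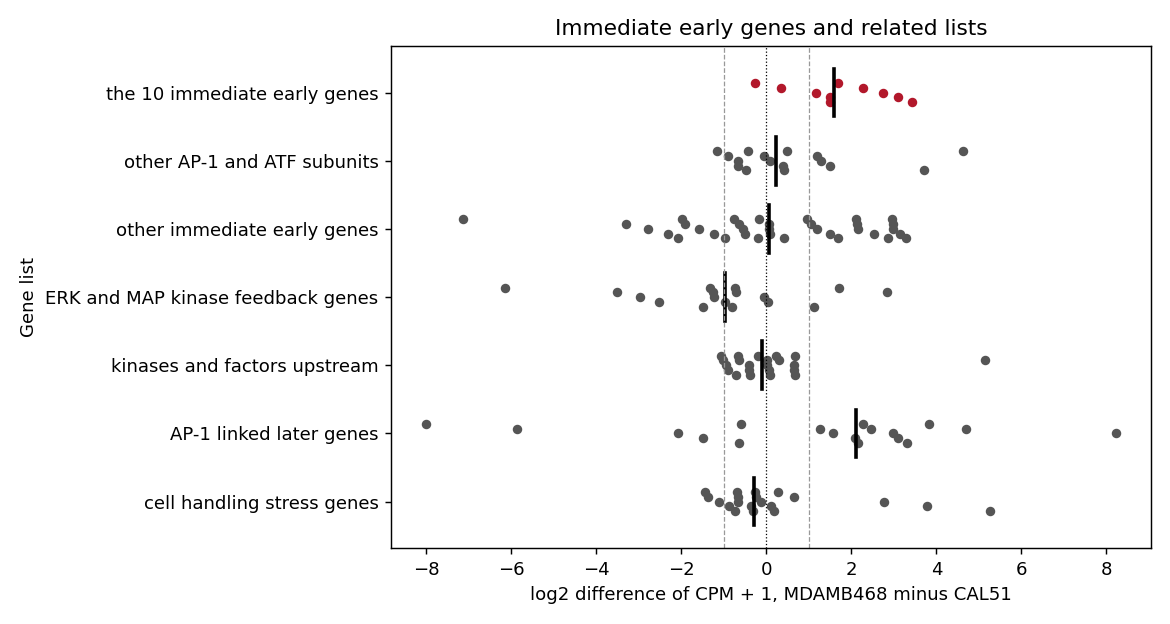
Log2 difference in CPM + 1, MDAMB468 minus CAL51, for each gene with at least 20 UMIs in each list, 1 point per gene and a line at the median. The 10 immediate early AP-1 and EGR genes have a median of 1.60, the ERK feedback genes -0.97 and the later AP-1 linked genes 2.11.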

How the data were processed

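Drop-seq libraries of 2 cell lines were analysed, 1 library per line. The authors deposited UMI counts, whole numbers, of 30796 genes in 1683 barcodes, and the values show no sign of scaling. STARsolo is named in the submitters' processing notes. Its version, the genome build, the annotation, the use of strand and the selection of barcodes were not given in the sources used here. Deposited barcodes had at least 2501 UMIs. Barcode name prefixes assigned each barcode to its line, and a gene name table gave symbols for 30730 identifiers.

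The 10 genes and all lists were chosen with earlier results of these data known. From the counts, CPM per line, log2 of CPM + 1, exact Poisson, conditional binomial and Clopper-Pearson 95% intervals were computed with Python 3.11.15, numpy 2.4.6, scipy 1.17.1 and pandas 2.3.3, and TMM factors with edgeR 4.0.16 in R 4.3.3. With 1 library per line no count model could be fitted and no p-value was computed. Barcodes were thinned without replacement to 2500 UMIs (seed 1). The scripts were tested on simulated data. Genes of each list were named when they had the 2 highest or 2 lowest differences among genes with at least 20 UMIs, and others were named after their values were seen. Some listed genes are counted but not reported by name here. Like genes were the 5 with the highest r and a mean of at least 0.1 UMIs. The marks of 2-fold, a Fano factor of 1.5 and an r of 0.1 were set by hand. A comparison of Fano factors with genes of like mean was planned and not made. Doublets were not called or removed here. Sequences are from RefSeq, GRCh38.p14, and positions from GENCODE 29. Alternatives covered scaling, pseudocount, barcode sets, depth and the random draw.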

Additional observations from a re-analysis of the deposited data

Results flagged for a closer look

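One signal lay outside the data compared above. In the 31 CAL51-labelled barcodes whose sequence also occurs in MDAMB468, the 10 genes had 378 UMIs, or 2795 CPM (2520–3092). The MDAMB468 barcodes with the same sequences stood at 2680 CPM, and the other CAL51 barcodes at 841 CPM. IER3 had 159 of these UMIs (1176 CPM), JUN 39 (288 CPM) and ATF3 5 (37.0 CPM). KRT5, which had 0 UMIs in the other CAL51 barcodes, had 40 UMIs in these. The levels in these barcodes were thus nearer to those of MDAMB468, and where their RNA came from was not tested.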

How the results depend on the processing

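The count of 8 genes at least 2-fold higher in MDAMB468 was 8 under every setting tried except a pseudocount of 10 CPM, which gave 6, and the mean CPM of barcodes, which gave 7. The median log2 difference of 1.60 became 1.48 with TMM scaling, 1.47 with median of ratios scaling, 1.74 with totals without mitochondrial and ribosomal protein genes, 1.82 and 1.31 with pseudocounts of 0.1 and 10 CPM, and 1.72 without the deepest 10% of barcodes. The first 3 of these moved the median of all genes by -0.12, -0.13 and 0.10. EGR1 stayed negative (-0.53 to -0.16) and FOS positive (0.20 to 0.45) under each setting. The median Fano factor of the 10 genes, 1.11 in MDAMB468 and 1.14 in CAL51, became 1.002 and 0.999 at 1000 UMIs, 1.42 and 1.32 at 5000, 1.72 and 1.43 at 10000, and 2.33 and 2.02 at 20000, and 1.24 in CAL51 with another random draw. The median r became 0.0539 (Spearman) and 0.0551 (10000 UMIs) in MDAMB468, and 0.0468 (all CAL51 barcodes) and 0.0779 (20000 UMIs) in CAL51. None of the log2 differences or medians changed sign. Of the values of single genes under alternatives, 26 log2 differences moved by more than their counting interval and 74 did not, 83 Fano factors moved by more than 0.1 and 57 did not, and 81 shares of barcodes moved out of their interval and 59 did not. Settings with other barcodes also redraw the random UMIs, and their causes were not tested. The settings at 10000 and 20000 UMIs, without the deepest 10% and without the barcode rich in ATF3 were added after seeing the data. No paired analysis was possible because each line is 1 library.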

Other observations

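The MDAMB468 barcode with the most ATF3 and JUNB UMIs also held most of the line's interferon transcripts, as seen with a list chosen after the data were seen. IFNB1, the interferon beta gene, had 210 UMIs in that barcode, 3058 CPM (2658–3501), against 1.66 CPM in the other barcodes of the line. The interferon lambda genes IFNL1, IFNL2 and IFNL3 had 299, 190 and 190 UMIs there and 12, 6 and 4 in the other barcodes. Among interferon-induced genes, IFIT2 had 488 UMIs (7106 CPM) against 3.68 CPM elsewhere in the line, and CCL5 and CXCL10 had 97 each. PPP1R15A, the stress-induced phosphatase subunit, had 297 UMIs against 267 in all other barcodes apart from the satellite.

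Some correlations of ATF3 and JUNB in MDAMB468 rested on that barcode. At 2500 UMIs, JUNB with IFIT2 had an r of 0.324 over 306 barcodes and 0.0860 without the barcode and its satellite. ATF3 with IFIT1 had 0.254 and, without them, -0.0388. At 20000 UMIs, JUNB with ATF3 had 0.478 over 91 barcodes and 0.0109 over 90.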
